A study of Homo sapiens with 15 samples.

Results

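The 54 genes described here encode SR proteins, heterogeneous nuclear ribonucleoproteins (hnRNPs), SF3A and SF3B proteins and the core proteins of the small nuclear ribonucleoproteins (snRNPs). They were chosen by name alone: every gene whose symbol was SRSF with a number, began with HNRNP, was SF3A or SF3B with a number, or began with SNRP. These names took in 54 of the 12995 genes of each table, namely 11 SRSF, 22 HNRNP, 9 SF3 and 12 SNRP genes. Of 60 protein-coding genes with such a name in the GENCODE annotation, 52 were listed in the tables. SRSF10 and SNRPN were among the 8 that were not in the tables used here. The remaining members, HNRNPA1P33 and SNRPGP15, are annotated as processed pseudogenes.

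Splicing removes introns from pre-mRNA. The snRNPs recognise the splice sites and the branch point: U1 binds the 5′ splice site, and U2, held there by the SF3A and SF3B proteins, binds the branch point. Each of these snRNPs carries a ring of Sm proteins, encoded by SNRPB, SNRPD1, SNRPD2, SNRPD3, SNRPE, SNRPF and SNRPG. SR proteins bind exons and mostly favour their inclusion, whereas many hnRNPs bind introns or exons and often favour skipping, so that the balance between both families sets many alternative splicing choices in epithelial and mesenchymal cells.

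RNA was measured in 5 groups of 3 libraries. OKF6 is a normal oral epithelial cell line, and SCC15 and SCC25 are head and neck cancer (HNC) cell lines. Cells of both cancer lines expressed Cas9, and a guide RNA targeting YBX1, a cold-shock domain protein that binds RNA and Y-box DNA, could be switched on in them with doxycycline. They were used as sorted pools, not as clones. The +YBX1 groups received no doxycycline, and the –YBX1 groups received 1 µg/mL for 3 days, so that doxycycline and the loss of YBX1 cannot be told apart. SCC15 was grown in serum-containing DMEM and the other lines in keratinocyte serum-free medium, so that line and medium cannot be told apart either. The labels name no YBX1 construct for OKF6, so that line and construct cannot be told apart in comparisons with OKF6. In what follows, SCC15 and SCC25 compared with OKF6 or with each other stand for their +YBX1 libraries. The labels do not say that replicates were separate cultures, and p-values measure only the spread between these libraries.

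Levels are log2 CPM, that is log2 of the reads of a gene scaled to the library size after the authors' normalization. Values after ± are limma standard errors of a log2 change. The 3′ end libraries held 4075290 to 6118501 reads on genes, and 1 read was worth 0.138 to 0.226 CPM. OKF6 replicate 1 stood apart from the other OKF6 libraries. Of 8 epithelial marker genes, 7 were above a log2 CPM of 5 in every OKF6 library and 8 in every SCC25 +YBX1 library, but only 2 in every SCC15 +YBX1 library. The summed level of these markers was 148 to 170 CPM in SCC15 +YBX1, 5895 to 12685 CPM in SCC25 +YBX1 and 11149 to 22095 CPM in OKF6, and TP63 had at most 3 reads in any SCC15 library. The epithelial markers were thus low in SCC15, with the other 7 above 3 reads in at least 1 library. The summed level of 5 mesenchymal markers was also lowest in SCC15 +YBX1, at 405 to 427 CPM, beside 2455 to 3230 CPM in SCC25 +YBX1 and 703 to 1691 CPM in OKF6, where CDH2 and ZEB1 had at most 3 reads. That sum hides a split. FN1, at a mean log2 CPM of 10.9 in SCC25 +YBX1 and 9.93 in OKF6, had 4.12 in SCC15 +YBX1, and COL1A1 was lowest there too. CDH2 and ZEB1 were highest in SCC15 +YBX1, at 5.50 and 4.24, beside 3.45 and 0.69 in SCC25 +YBX1. VIM in SCC15 +YBX1 lay between the other lines. Of 4 immune markers 2 were in the tables, with a sum of at most 8.53 CPM in any library, and of 3 endothelial markers none. The part of these marker levels in the differences below was not tested. YBX1, the target of the guide, had log2 CPM values of 6.74, 6.31 and 6.62 in SCC25 cells without doxycycline and 5.26, 4.70 and 3.65 with it. The SCC15 libraries had 5.11, 5.56 and 6.00 without and 3.36, 3.71 and 3.13 with doxycycline, so the groups did not overlap in either line. OKF6 had 6.76, 8.15 and 8.37. Against OKF6, YBX1 differed by -2.205 ± 0.39 in SCC15 +YBX1 (adjusted p = 0.000707, limma) and by -1.206 ± 0.39 in SCC25 +YBX1 (adjusted p = 0.0375). The part of this in the differences from OKF6 was not tested.

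The splicing genes together took a larger share of the reads in SCC15 than in the other lines, a sum in which the most abundant members weigh most. They took 1.85% to 2.37% of the reads of SCC15 +YBX1 libraries, 1.24% to 1.38% in SCC25 +YBX1 and 1.27% to 1.52% in OKF6, so SCC15 did not overlap with either. Ribosomal protein genes also took a larger share of the reads in SCC15 +YBX1, 14.8% to 16.3%, than in SCC25 +YBX1, 11.1% to 11.3%, or OKF6, 8.47% to 10.6%. The part of this shift in the splicing gene values was not tested.

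**Figure D1:**
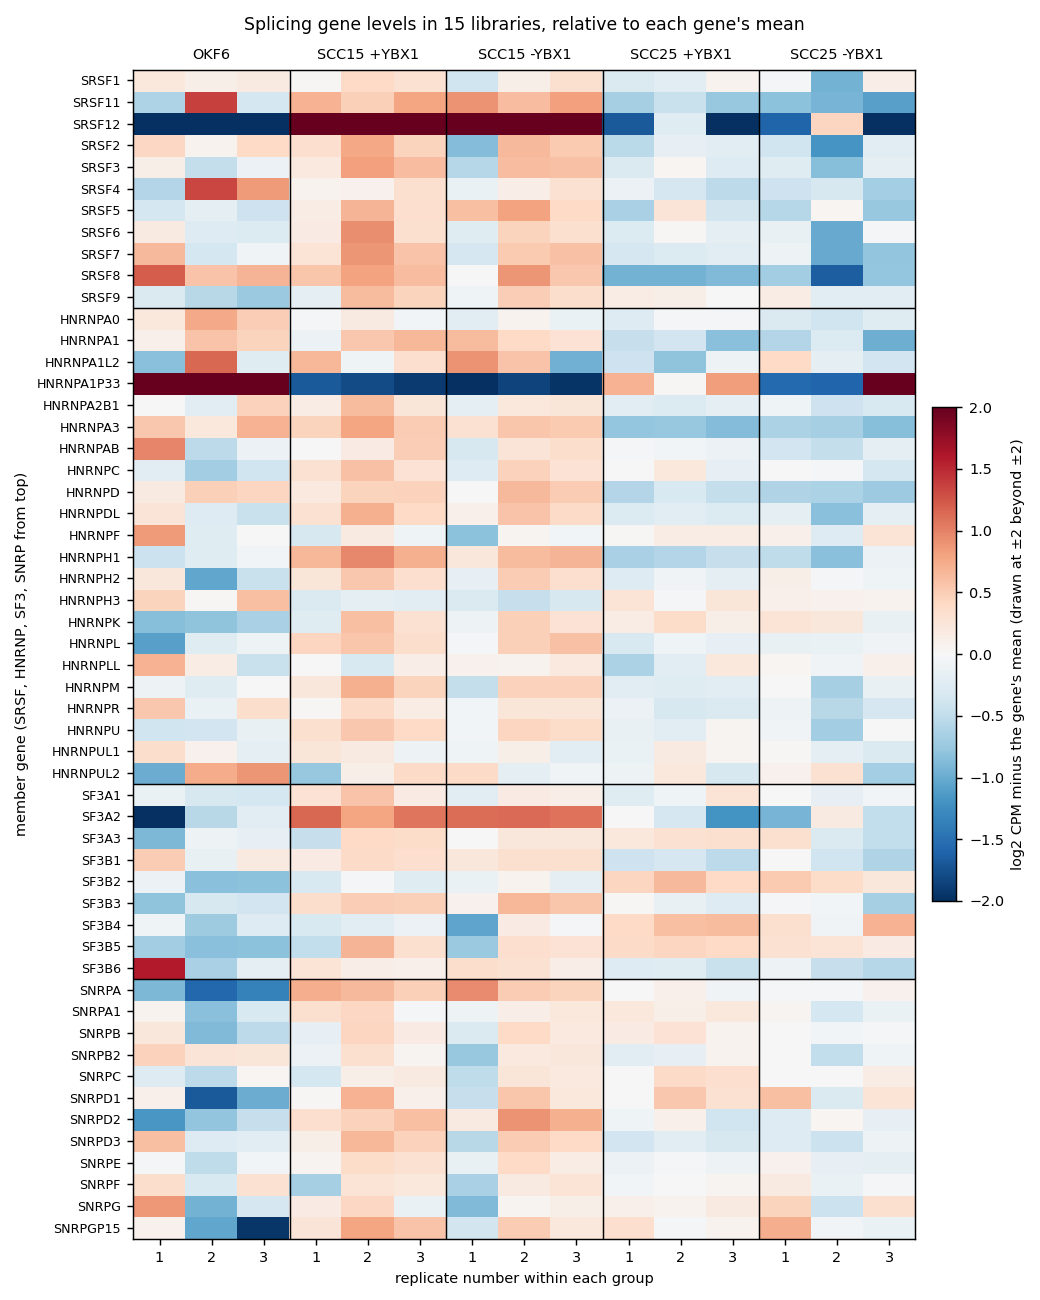
Log2 CPM of the 54 splicing genes (rows, by family) in the 15 libraries (columns, by group and replicate), each gene relative to its mean over the 15 libraries; colours stop at ±2. Most rows are redder in the SCC15 columns, SRSF12 and HNRNPA1P33 differ most between lines, and SCC15 –YBX1 replicate 1 and SCC25 –YBX1 replicate 2 are bluer than the libraries beside them.

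SCC15 against OKF6 asked which splicing genes differ between an HNC line and normal oral cells. Of the 54 members, 20 were higher and 2 lower in SCC15 at an adjusted p under 0.05 (limma), that is 37.0% higher and 3.70% lower. Over all genes tested, 26.9% were higher and 23.4% lower, and 50.3% were called in either direction against 40.7% of the members. Most calls of the members lay on the higher side. The median change of the members was 0.42, beside 0.10 for all genes, and 41 of 54 changes were above 0. Replicates of the groups did not overlap for 23 members, where 54.4% of all genes did not overlap. Of the 22 calls, 13 held in every fit that left out 1 library. Without OKF6 replicate 1, 30 members were higher and 5 lower, and without SCC15 +YBX1 replicate 2, 13 members were called in all.

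SCC25 against OKF6 put the same question for a line that kept its epithelial markers. In SCC25, 6 members were higher and 8 lower than in OKF6. That is 11.1% and 14.8% of the members, beside 18.9% and 11.3% of all genes, and 30.2% of all genes were called in either direction. The median change of the members was -0.07, beside 0.13 for all genes, and 24 changes were above 0. The median of the members turned to 0.09 without OKF6 replicate 1. Replicates did not overlap for 22 members, beside 43.3% of all genes. Quantile normalization gave 6 higher and 12 lower, and CPM over plain read totals gave 5 and 10. Of the 14 calls, 8 held in every fit that left out 1 library. Without OKF6 replicate 1 there were 13 higher and 10 lower, and without SCC25 +YBX1 replicate 2, 9 members were called in all.

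SCC15 against SCC25 compared both cancer lines directly. Here 17 members were higher in SCC15 and 3 lower, or 31.5% and 5.56% of the members. All genes leaned the other way, with 20.0% higher in SCC15 and 23.6% lower, and 43.6% called in all. The median change was 0.46 for the members and -0.01 for all genes, and 42 members had a change above 0. Replicates did not overlap for 34 members, beside 66.6% of all genes. Of the 20 calls, 8 held in every fit that left out 1 library, and without SCC25 +YBX1 replicate 3, 10 members were called in all. With quantile normalization 31 members were higher in SCC15 and none lower, and with library medians set equal 24 were higher and 2 lower. Those scalings also moved the median of all genes, to 0.17 and 0.14. The median of the members lay 0.55 above it with quantile normalization and 0.47 above it with equal library medians, against 0.47 as first fitted.

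These comparisons share libraries, so the calls are set side by side only. No member was called in opposite directions against OKF6 in the cancer lines. Higher in both were SNRPA, SNRPD2, HNRNPK and SF3B5, and lower in both was the pseudogene HNRNPA1P33. In all, 31 members differed from OKF6 in at least 1 cancer line, and 20 of the 54 members were called in none of the 3 comparisons of the lines. Such joint counts were not made for all genes, of which 50.3% were called in SCC15 and 30.2% in SCC25 against OKF6. The joint counts are therefore not read as a trait of the members.

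**Figure D2:**
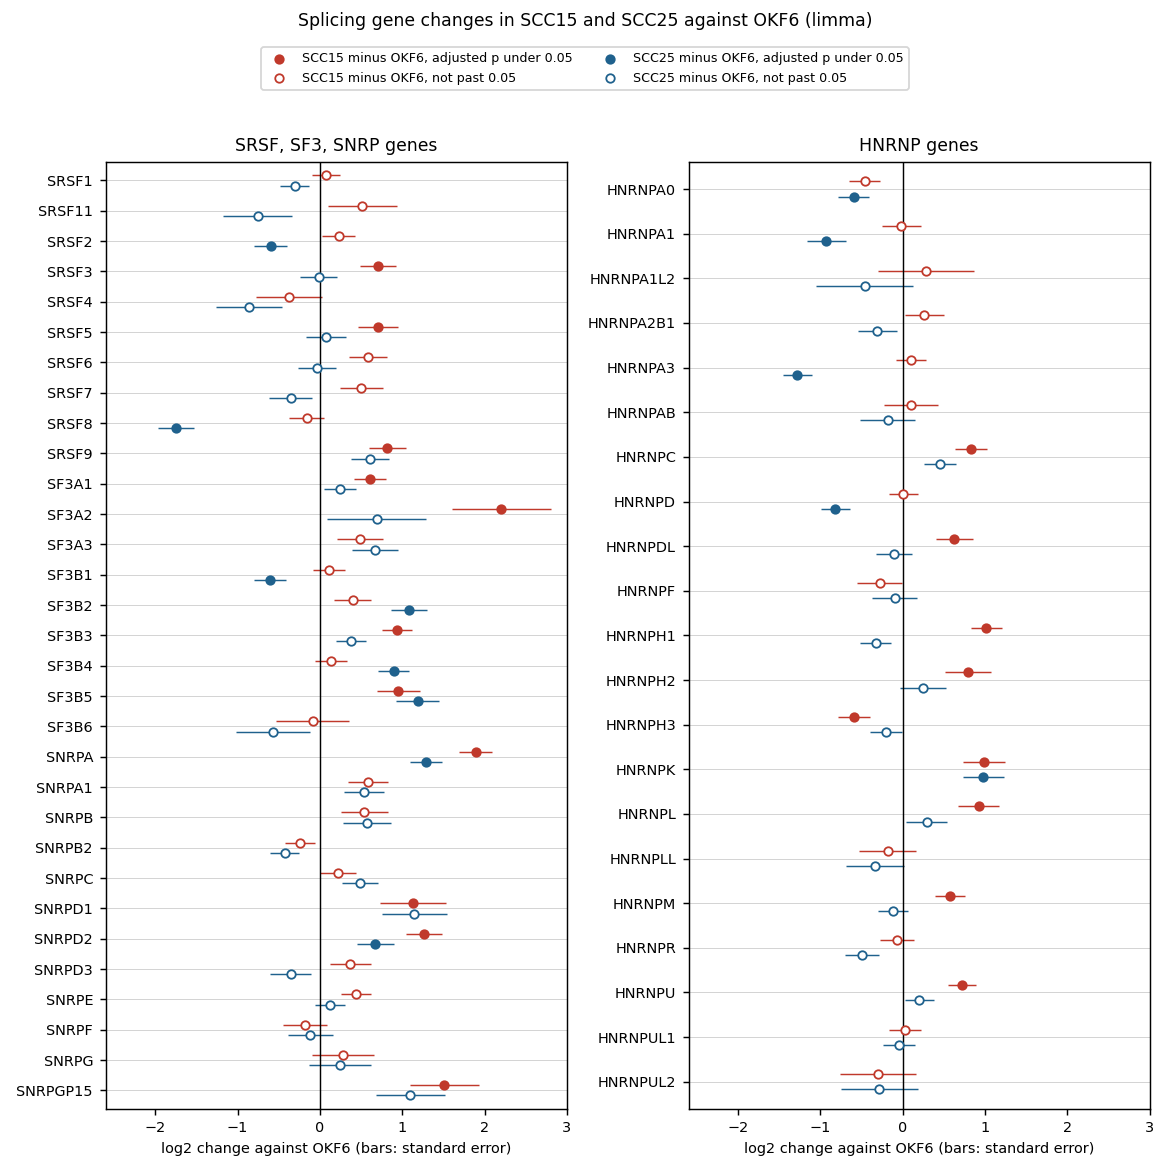
Log2 change against OKF6 (x axis, bars are limma standard errors, 3 libraries a group) of 52 splicing genes in SCC15 (red) and SCC25 (blue); filled points passed an adjusted p of 0.05. SRSF12 and HNRNPA1P33, whose levels in a group lay at or under 3 reads, are left out, and red points lie to the right of blue ones for most genes, with SF3B2, SF3B4 and SF3B5 among those where they do not.

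Among the SR proteins, SRSF12 showed the largest difference of all members between SCC15 and OKF6. SRSF12 is an SR-like protein known to counter other SR proteins. It lies at chr6:89095959-89118071, minus strand (hg38), and its promoter is shown because this gene had so few reads outside SCC15. It had 1, 0 and 0 reads in the OKF6 libraries, 121, 100 and 104 in SCC15 and 2, 6 and 0 in SCC25. SCC15 was thus far above every other library without knockdown. Against OKF6, where no library passed 3 reads, this was an at least 31.3-fold higher level (adjusted p = 4.9e-05), and against SCC25 the fitted change, which depends on the 0.5 reads the authors added, was 5.52 ± 0.85 (adjusted p = 0.000371). Both calls held in every fit that left out 1 library. The 120 bases before its RefSeq start (GRCh38.p14, chr6:89118072-89118191, minus strand) hold neither CCAAT nor CCGGAAG, the motifs put in capitals in the promoters that follow:
SRSF12: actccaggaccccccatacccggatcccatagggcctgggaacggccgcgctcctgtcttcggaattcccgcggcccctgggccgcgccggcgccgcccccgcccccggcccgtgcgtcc

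SRSF8, an SR protein closely related to SRSF2 in sequence, was low in SCC25 alone. Its log2 CPM was 6.55, 5.90 and 6.01 in OKF6, 5.89, 6.14 and 5.94 in SCC15 and 4.39, 4.38 and 4.44 in SCC25. SCC25 did not overlap with the other lines, whereas OKF6 and SCC15 did overlap. The change was -1.75 ± 0.21 in SCC25 against OKF6 (adjusted p = 0.000206) and 1.59 ± 0.21 in SCC15 against SCC25 (adjusted p = 0.000142). SRSF2, the speckle protein also known as SC35, was lowest in SCC25 too, with smaller differences. It had 8.82, 8.48 and 8.81 in OKF6, 8.75, 9.19 and 8.85 in SCC15 and 7.87, 8.25 and 8.19 in SCC25. It was lower in SCC25 than in OKF6, with a change of -0.60 ± 0.20 (adjusted p = 0.044), and higher in SCC15 than in SCC25, by 0.82 ± 0.20 (adjusted p = 0.00652). Both SRSF8 calls and the SRSF2 call against SCC15 held in every fit that left out 1 library, while the SRSF2 call against OKF6 was lost in 4 of 6 such fits (adjusted p up to 0.168). The 120 bases before the SRSF8 start (GRCh38.p14, chr11:95066757-95066876, plus strand) hold 1 CCAAT box on the other strand, in capitals:
SRSF8: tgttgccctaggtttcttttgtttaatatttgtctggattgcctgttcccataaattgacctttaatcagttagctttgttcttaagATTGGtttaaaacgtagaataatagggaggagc

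SRSF3, SRSF5 and SRSF9 were higher in SCC15 than in OKF6. SRSF3, the smallest SR protein and an adaptor for mRNA export, had 8.36, 7.76 and 8.13 in OKF6, 8.44, 9.07 and 8.86 in SCC15 and 7.95, 8.28 and 7.99 in SCC25. The SCC15 libraries lay above all others, with a change of 0.71 ± 0.22 against OKF6 (adjusted p = 0.0226) and 0.72 ± 0.22 against SCC25 (adjusted p = 0.0243). The change against OKF6 was 0.71 ± 0.24 for SRSF5 and 0.82 ± 0.23 for SRSF9 (adjusted p = 0.031 and 0.0116). Of the 3′ end pieces of SRSF9 that matched whole within the gene, 20.2% also matched elsewhere in the genome. SRSF7, which shares the export role of SRSF3, was higher in SCC15 than in SCC25 by 0.86 ± 0.26 (adjusted p = 0.0212). SRSF11 was higher in SCC15 than in SCC25 by 1.27 ± 0.42 (adjusted p = 0.0305), and OKF6 replicate 2, at 7.91, lay far above the other OKF6 libraries, at 5.93 and 6.2. Leaving out 1 library at a time, the SRSF3 calls were lost in 3 and 4 of 6 fits, that of SRSF5 in 3, that of SRSF7 in 5 and that of SRSF11 in all 6, with adjusted p up to 0.12. The SRSF9 call was lost only without SCC15 +YBX1 replicate 2 (adjusted p = 0.0546).

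SRSF1, the prototype of the family that binds purine-rich exonic enhancers, was not called in any of these comparisons, with 8.08, 7.98 and 8.04 in OKF6, 7.89, 8.27 and 8.17 in SCC15 and 7.59, 7.66 and 7.94 in SCC25. SRSF6 was not called either, at 8.31, 7.88 and 7.85, 8.29, 9.06 and 8.45 and 7.85, 8.16 and 7.93 in the same order, with SCC15 above SCC25 in every library. All 11 SRSF genes had a change above 0 in SCC15 against SCC25, 6 of them past the threshold, beside 49.6% and 20.0% of all genes. Against OKF6, 4 SRSF genes were higher in SCC15 and none lower, and in SCC25 none was higher and 2 were lower. Of all genes, 26.9% were higher and 23.4% lower in SCC15, and 18.9% higher and 11.3% lower in SCC25.

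**Figure D3:**
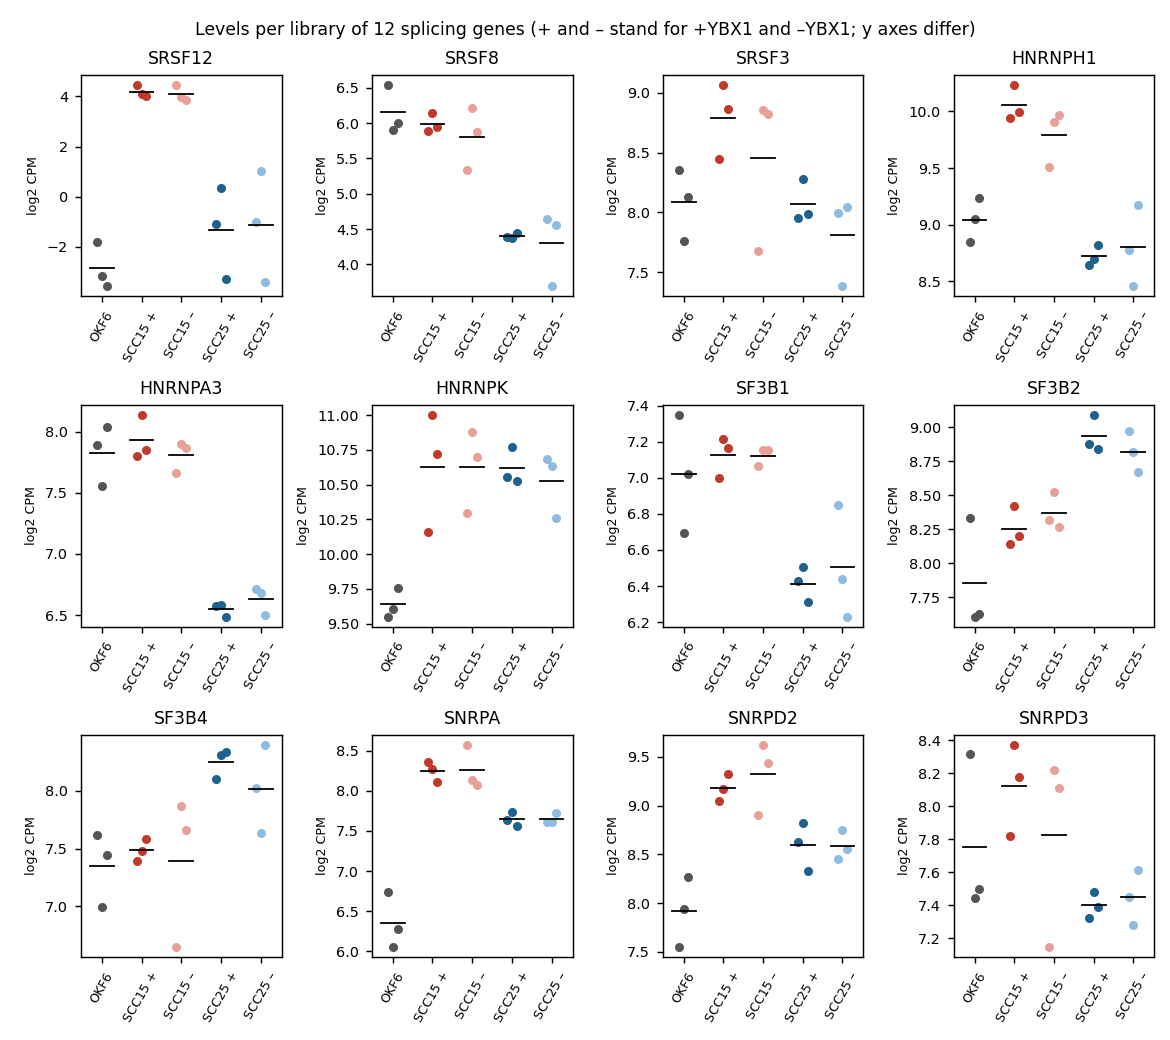
Log2 CPM per library (points, 3 a group) and group mean (bars) of 12 splicing genes in OKF6 and in SCC15 and SCC25 with (+) and without (–) YBX1; the y axes differ between panels. SRSF12 and SNRPA are highest in SCC15, SRSF8, HNRNPA3 and SF3B1 are lowest in SCC25, SF3B2 and SF3B4 are highest in SCC25, and the – groups lie over or next to their + groups.

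Among the hnRNPs, HNRNPA3, HNRNPA1 and HNRNPD were lower in SCC25 than in both other lines. HNRNPA3 lies at chr2:177212694-177223959, plus strand. It had 7.89, 7.56 and 8.04 in OKF6, 7.80, 8.14 and 7.85 in SCC15 and 6.58, 6.59 and 6.49 in SCC25. No SCC25 library reached the lowest of the other 6. The change was -1.28 ± 0.18 in SCC25 against OKF6 (adjusted p = 0.000553) and 1.38 ± 0.18 in SCC15 against SCC25 (adjusted p = 0.00012). HNRNPA1, the best known splicing silencer of the family and an opponent of SRSF1, had 7.51, 7.98 and 7.85 in OKF6, 7.28, 7.94 and 8.06 in SCC15 and 6.95, 7.03 and 6.57 in SCC25. It differed by -0.93 ± 0.24 between SCC25 and OKF6 (adjusted p = 0.015). HNRNPD, an AU-rich element binding protein known as AUF1, differed by -0.82 ± 0.18 in the same comparison (adjusted p = 0.00604). HNRNPA0 was lower in SCC25 than in OKF6 only, with a change of -0.60 ± 0.19 (adjusted p = 0.0327), and overlapped between SCC15 and SCC25. SCC15 exceeded SCC25 by 0.91 for HNRNPA1 and 0.82 for HNRNPD. The calls of HNRNPA3 and HNRNPD held in every fit that left out 1 library. That of HNRNPA1 against OKF6 was lost without SCC25 +YBX1 replicate 3 (adjusted p = 0.0684). Its call between the cancer lines was lost without replicate 3 of either line (adjusted p up to 0.0527). That of HNRNPA0 was lost in 5 of 6 fits (adjusted p up to 0.119). HNRNPA2B1, a close relative of HNRNPA1, was not called, with 9.94, 9.73 and 10.40 in OKF6, 10.09, 10.57 and 10.19 in SCC15 and 9.73, 9.66 and 9.75 in SCC25.

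A second set was higher in SCC15. HNRNPH1, which binds G-rich tracts, lies at chr5:179614178-179634784, minus strand. It had 8.85, 9.05 and 9.24 in OKF6, 9.94, 10.24 and 9.99 in SCC15 and 8.64, 8.69 and 8.82 in SCC25, and the 3 lines did not overlap. Its change was 1.01 ± 0.19 against OKF6 (adjusted p = 0.00103) and 1.34 ± 0.19 against SCC25 (adjusted p = 0.000191). Its relative HNRNPH3 went the other way in SCC15 against OKF6, with a change of -0.59 ± 0.19 (adjusted p = 0.0255), and HNRNPH2 was higher by 0.79 ± 0.28 (adjusted p = 0.0336). HNRNPU, a nuclear matrix protein, had 8.47, 8.49 and 8.72 in OKF6, 9.18, 9.40 and 9.26 in SCC15 and 8.71, 8.65 and 8.91 in SCC25, and was higher in SCC15 than in OKF6 by 0.72 ± 0.17 (adjusted p = 0.00553). HNRNPC, which binds uridine tracts, was higher by 0.83 ± 0.19 (adjusted p = 0.0043). HNRNPL, which binds CA repeats, was higher by 0.92 ± 0.25 (adjusted p = 0.00962). HNRNPM and HNRNPDL passed the threshold as well, in SCC15 against both other lines, with changes of 0.57 to 0.73. The calls of HNRNPH1, HNRNPU, HNRNPC and HNRNPL against OKF6 held in every fit that left out 1 library. Those of HNRNPH2 and HNRNPH3 were lost in 5 and 4 of 6 fits (adjusted p up to 0.107 and 0.0881), with HNRNPH2 at 0.48 without OKF6 replicate 2, those of HNRNPM without SCC15 +YBX1 replicate 2, among others (adjusted p = 0.0968 against OKF6), and those of HNRNPDL in 4 and 5 of 6 fits (adjusted p up to 0.14).

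HNRNPK, a poly-C binding protein, was higher in both cancer lines. It had 9.55, 9.61 and 9.76 in OKF6, 10.16, 11.00 and 10.72 in SCC15 and 10.56, 10.77 and 10.53 in SCC25. Both cancer lines lay above OKF6 in every library and overlapped with each other. The change was 0.99 ± 0.25 in SCC15 (adjusted p = 0.00704) and 0.98 ± 0.25 in SCC25 (adjusted p = 0.0138), and 12.8% of its 3′ end pieces matched elsewhere in the genome too. The SCC25 call was lost without SCC25 +YBX1 replicate 2 (adjusted p = 0.0636), and the SCC15 call held in every such fit. HNRNPD and HNRNPDL are neighbours on chromosome 4, 48.1 kb apart. HNRNPD was called lower in SCC25 than in OKF6 and HNRNPDL was not, and the difference between them was not tested. HNRNPDL had 9.68, 9.17 and 8.98 in OKF6 and 9.15, 9.20 and 9.16 in SCC25, which overlapped.

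The pseudogene HNRNPA1P33 had 15, 10 and 27 reads in OKF6, 0, 0 and 0 in SCC15 and 2, 1 and 2 in SCC25. It was at least 6.39-fold lower in SCC15 and at least 5.44-fold lower in SCC25 than in OKF6. It was also called between SCC15 and SCC25, but both lines lay at or under 3 reads, and no fold is given. Of its 3′ end pieces of 75 bases, 84.9% matched another place in the genome without a mismatch, so the origin of these reads is uncertain. The same holds for HNRNPA1L2, with 60.5% of its pieces matching elsewhere. Only pieces that matched whole within the gene itself were counted, so pieces across exon junctions were left out. Of the 54 members, 41 had no counted piece that matched elsewhere. For SNRPF, 1 of these, only 35 of 76 pieces were counted, so a match of the other pieces is not excluded. Among the others, the share was 12.8% for HNRNPA3, 9.86% for SF3B4, 8.45% for HNRNPL and 5.81% for HNRNPH1.

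The SF3 genes divided within the SF3B complex, the part of the U2 snRNP that clasps the branch point. SF3B1, its scaffold, lies at chr2:197388515-197435079, minus strand and had 7.35, 6.70 and 7.02 in OKF6, 7.00, 7.22 and 7.17 in SCC15 and 6.43, 6.50 and 6.31 in SCC25. It was lower in SCC25 than in OKF6, with a change of -0.61 ± 0.19 (adjusted p = 0.0365), and higher in SCC15 than in SCC25, by 0.71 ± 0.19 (adjusted p = 0.0124). SF3B2 and SF3B4, which bind each other within the complex, were highest in SCC25, where SF3B1 was lowest. SF3B2 had 8.33, 7.61 and 7.62 in OKF6, 8.14, 8.42 and 8.20 in SCC15 and 8.88, 9.09 and 8.84 in SCC25. SF3B4 had 7.61, 6.99 and 7.45, 7.39, 7.48 and 7.59 and 8.10, 8.31 and 8.34 in the same order. SCC25 lay above both other lines in every library for both genes. Against OKF6 the change in SCC25 was 1.08 ± 0.22 for SF3B2 (adjusted p = 0.00438) and 0.89 ± 0.19 for SF3B4 (adjusted p = 0.00591). In SCC15 against SCC25 it was -0.69 ± 0.22 for SF3B2 and -0.76 ± 0.19 for SF3B4 (adjusted p = 0.0275 and 0.00864). Leaving out 1 library at a time, both SF3B4 calls and the SF3B2 call against OKF6 held, the SF3B2 call against SCC15 was lost in 5 of 6 fits (adjusted p up to 0.102), the SF3B1 call against OKF6 in 5 of 6 (adjusted p up to 0.12) and the SF3B1 call against SCC15 only without SCC25 +YBX1 replicate 3 (adjusted p = 0.0514).

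SF3B5, a small subunit, was higher in both cancer lines, by 0.95 ± 0.26 in SCC15 (adjusted p = 0.0109) and 1.19 ± 0.26 in SCC25 (adjusted p = 0.00657). SF3B3 was higher in SCC15 than in OKF6 by 0.94 ± 0.18 (adjusted p = 0.00144) and than in SCC25 by 0.56 ± 0.18 (adjusted p = 0.0287). SF3B6, which contacts the branch point adenosine, was not called, and OKF6 replicate 1, at 9.29, lay far above the other OKF6 libraries, at 7.06 and 7.53. Of the SF3A trimer, SF3A1 was higher in SCC15 than in OKF6 by 0.61 ± 0.19 (adjusted p = 0.0215). SF3A2 had 12, 50 and 85 reads in OKF6, 204, 172 and 230 in SCC15 and 89, 67 and 35 in SCC25, and was higher in SCC15 than in OKF6 by 2.20 ± 0.60 (adjusted p = 0.0108). The calls of SF3B5, SF3A2 and SF3B3 against OKF6 held in every fit that left out 1 library, with SF3A2 at 1.40 without OKF6 replicate 1, that of SF3A1 was lost without OKF6 replicate 3 or SCC15 +YBX1 replicate 2 (adjusted p up to 0.0897) and that of SF3B3 against SCC25 in 4 of 6 fits (adjusted p up to 0.106). SF3A3 was not called, with 5.99, 6.77 and 6.72 in OKF6, 6.42, 7.28 and 7.25 in SCC15 and 7.09, 7.19 and 7.21 in SCC25. The 120 bases before the starts of SF3A2 (GRCh38.p14, chr19:2236704-2236823, plus strand) and SF3B4 (chr1:149927804-149927923, minus strand) are shown since both hold CCGGAAG, an ETS factor motif, in capitals:
SF3A2: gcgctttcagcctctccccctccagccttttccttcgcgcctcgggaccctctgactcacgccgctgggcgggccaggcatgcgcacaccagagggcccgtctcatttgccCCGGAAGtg
SF3B4: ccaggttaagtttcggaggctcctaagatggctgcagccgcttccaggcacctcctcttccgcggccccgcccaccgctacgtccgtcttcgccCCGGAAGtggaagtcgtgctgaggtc

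SNRPA, which encodes the A protein of the U1 snRNP, was the SNRP gene with the largest change against OKF6 in SCC15 and was called in all 3 comparisons. It lies at chr19:40750637-40765389, plus strand. It had 6.74, 6.06 and 6.28 in OKF6, 8.36, 8.28 and 8.11 in SCC15 and 7.64, 7.73 and 7.56 in SCC25. The lines did not overlap, and SCC15 was highest. The change against OKF6 was 1.89 ± 0.20 in SCC15 (adjusted p = 1.58e-05) and 1.29 ± 0.20 in SCC25 (adjusted p = 0.000866), and SCC15 exceeded SCC25 by 0.60 ± 0.20 (adjusted p = 0.0289). Both calls against OKF6 held in every fit that left out 1 library, and the call between the cancer lines was lost in 5 of 6 (adjusted p up to 0.095). The other U1 protein among the members, SNRPC, was not called, with 6.96, 6.70 and 7.26 in OKF6, 6.86, 7.34 and 7.39 in SCC15 and 7.23, 7.60 and 7.55 in SCC25. The U2 proteins SNRPA1 and SNRPB2 were not called either. SNRPA1 had 5.99, 5.08 and 5.61 in OKF6, 6.24, 6.33 and 5.88 in SCC15 and 6.13, 6.02 and 6.12 in SCC25. Of its 86 3′ end pieces, 45 matched whole within the gene, and 51.1% of those also matched elsewhere.

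Of the 7 Sm ring genes, SNRPD2 had the clearest difference. It had 7.55, 7.94 and 8.26 in OKF6, 9.05, 9.17 and 9.33 in SCC15 and 8.63, 8.82 and 8.33 in SCC25. It was higher in SCC15 by 1.27 ± 0.22 (adjusted p = 0.000698) and in SCC25 by 0.67 ± 0.22 (adjusted p = 0.0415). Its ring partner SNRPD1 had 9.84, 8.06 and 8.75 in OKF6, 9.77, 10.43 and 9.84 in SCC15 and 9.75, 10.29 and 10.05 in SCC25. The change in SCC15 was 1.13 ± 0.40 (adjusted p = 0.0345), although OKF6 replicate 1 overlapped with SCC15. SNRPD3, the partner of SNRPB, was higher in SCC15 than in SCC25 by 0.72 ± 0.25 (adjusted p = 0.0362). Of these calls, that of SNRPD2 in SCC15 held in every fit that left out 1 library, that in SCC25 was lost in 4 of 6 (adjusted p up to 0.159), and those of SNRPD1 and SNRPD3 in 5 of 6 each (adjusted p up to 0.128), with SNRPD1 at 0.72 without OKF6 replicate 2. SNRPB had 10.07, 8.96 and 9.33 in OKF6, 9.68, 10.28 and 10.02 in SCC15 and 10.02, 10.14 and 9.92 in SCC25 and was not called. SNRPE was not called, at 7.74, 7.27 and 7.73, 7.83, 8.15 and 8.08 and 7.66, 7.74 and 7.69 in the same order, and SNRPF and SNRPG were not called in any comparison. The pseudogene SNRPGP15 was called in SCC15 against OKF6, by 1.51 ± 0.42 (adjusted p = 0.0117). Of the pieces that matched whole within each gene, 23.3% for SNRPGP15 and 41.0% for its parent SNRPG also matched elsewhere.

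The wider splicing machinery, taken from 9 lists of other splicing genes with 136 of 141 genes in the tables, also had more genes higher than lower in SCC15. There 37 genes were higher and 14 lower than in OKF6, or 27.2% and 10.3%, beside the 26.9% and 23.4% of all genes given above. In SCC25 against OKF6 18 were higher and 14 lower, or 13.2% and 10.3%, beside 18.9% and 11.3% of all genes. In SCC15 against SCC25 32 were higher and 11 lower, or 23.5% and 8.09%, beside 20.0% and 23.6% of all genes. The counts of each list below are to be read beside the same shares of all genes. Of 22 other U1, U2, U4/U6 and U5 proteins, 10 were higher in SCC15 than in OKF6 and none lower. They were led by PRPF8, the protein at the catalytic centre, with 2.34 ± 0.28 in SCC15 (adjusted p = 4.81e-05) and 1.97 ± 0.28 in SCC25 (adjusted p = 0.000578). Next came PRPF3, a U4/U6 protein, with 1.48 ± 0.48 in SCC15 (adjusted p = 0.0251). The PRPF3 call was lost without any 1 of the SCC15 libraries (adjusted p up to 0.0835), and its change was 0.79 without OKF6 replicate 1, while both PRPF8 calls held in every fit that left out 1 library. In SCC25, 4 of the 22 were higher and 1 lower. SCC15 exceeded SCC25 in 6 of them, with LUC7L and LUC7L3, U1 accessory proteins, at 1.04 ± 0.24 and 0.99 ± 0.17 (adjusted p = 0.00553 and 0.000741), and lay below it in 2.

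Branch point and 3′ splice site factors numbered 11, of which 4 were higher and none lower in SCC15 than in OKF6, none higher and 1 lower in SCC25, and 5 higher and none lower in SCC15 than in SCC25. U2AF2, which binds the polypyrimidine tract, was higher in SCC15 than in OKF6 by 1.15 ± 0.29 (adjusted p = 0.00727). DDX46, a helicase of the U2 snRNP, was the gene lower in SCC25, with a change of -1.42 ± 0.21 (adjusted p = 0.000725), and it was higher in SCC15 than in SCC25 by 1.28 ± 0.21 (adjusted p = 0.000597). Of 7 LSm ring genes in the tables, 2 were higher in SCC15 and 3 in SCC25 than in OKF6, and none was lower. LSM4 was among them in both, at 1.61 ± 0.22 in SCC15 and 1.51 ± 0.22 in SCC25 (adjusted p = 0.000108 and 0.000592). LSM1 and LSM7 were the others called in SCC25. Their calls were lost in 1 and 3 of 6 fits that left out 1 library (adjusted p up to 0.0546 and 0.0841).

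Genes that assemble the Sm ring were higher in SCC15 than in OKF6 for 5 of 11 and lower for none, and in SCC25 higher for 3 and lower for 2. CLNS1A, the chaperone that holds Sm proteins before assembly, was lower in SCC25 than in OKF6, with a change of -1.22 ± 0.17 (adjusted p = 0.000498), and higher in SCC15 than in SCC25, by 1.61 ± 0.17 (adjusted p = 2.42e-05). GEMIN4, a member of the SMN complex, was higher in both, by 1.38 ± 0.28 and 1.52 ± 0.28 (adjusted p = 0.00169 and 0.00239). SMN1 and SMN2 were not in the tables used here. Of 15 exon junction complex and SR-related genes, 5 were higher in SCC15 than in OKF6 and none lower, and 3 were higher and 1 lower in SCC25. PNN, a speckle protein, was the lower one, with a change of -1.22 ± 0.23 (adjusted p = 0.00308). RBM8A, a core protein of the exon junction complex, was higher in both, by 1.61 ± 0.21 and 1.31 ± 0.21 (adjusted p = 8.18e-05 and 0.0011).

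The Prp19 complex and the catalytic step factors did not have that split. Of 21 in the tables, 1 was higher and 5 were lower in SCC15 than in OKF6, 5 were higher and 2 lower in SCC25, and none was higher and 3 were lower in SCC15 than in SCC25. Between the cancer lines, the PRPF18, AQR and CTNNBL1 calls were lost in 6, 5 and 3 of 6 fits without 1 library. Against OKF6, those of SLU7, CDC5L and CWC22 were lost in 5, 5 and 4 fits in SCC15. In SCC25, those of CTNNBL1, DHX38, ISY1 and BUD31 were lost in 5, 5, 4 and 3. Held in every fit against OKF6 were the calls of PRPF18 and AQR in SCC15, SLU7 and CDC5L in SCC25 and PPIE in both. PRPF18, a second-step factor, was lower in SCC15 than in OKF6, with a change of -1.56 ± 0.38 (adjusted p = 0.00601), and CDC5L was lower in SCC25, with a change of -1.20 ± 0.27 (adjusted p = 0.00762). The kinases and the importer of SR proteins, 9 genes, had 2 higher and 1 lower in SCC15, where CLK2 was higher by 1.14 ± 0.25 (adjusted p = 0.00337) and the importer TNPO3 lower, with a change of -0.96 ± 0.34 (adjusted p = 0.0372). In SCC25, CLK1 was the only gene of the 9 called, at -0.84 ± 0.27 (adjusted p = 0.0357). The calls of TNPO3, whose groups overlapped, and CLK1 were each lost in 5 of 6 fits that left out 1 library (adjusted p up to 0.126 and 0.132). Of 8 minor spliceosome genes, 3 were higher and 1 lower in SCC15 than in OKF6, with SNRNP48 at 1.77 ± 0.26 (adjusted p = 0.000227), and 1 was lower in SCC25.

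Other splicing regulators split: of 32, 5 were higher and 7 lower in SCC15 than in OKF6, none higher and 5 lower in SCC25, and 9 higher and 6 lower in SCC15 than in SCC25. The epithelial regulators ESRP1 and ESRP2 had 8, 0 and 3 and 3, 2 and 2 reads in SCC15, against 1146, 712 and 889 and 622, 216 and 395 in OKF6. CELF2, a regulator best known from muscle and brain, had 136, 155 and 204 reads in SCC15 and 4, 10 and 1 in OKF6.

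The promoters of the members were searched for the CCAAT box, whose inverted form lies in the Y-box that gave YBX1 its name, and for a few other short motifs, on both strands. None of these letter strings contains another. RefSeq promoters of 300 bases, from 250 before to 50 after the start, were found for 48 of the 54 members. CCAAT on either strand occurred in 41.7% of them, in 36.7% of the promoters of all genes of the tables and in 35.7% of all promoters. CCGGAAG occurred in 37.5% of the member promoters, 19.1% of those of the tables and 10.7% of all. CACGTG, the E-box of MYC and related factors, occurred in 16.7%, 10.2% and 7.43% and GCCATNTTG, the YY1 motif, in 8.33%, 5.23% and 3.04%. TATAAA, the TATA box, occurred in 12.5%, 5.49% and 12%. A match is a run of letters, and binding was not measured. Members with CCAAT numbered 20 and had a median knockdown change of -0.07 in SCC25 and -0.12 in SCC15. The 28 without it had -0.13 and -0.10. The SNRPF promoter is shown as a member with 2 CCAAT boxes, in capitals, in the 120 bases before its start (GRCh38.p14, chr12:95858832-95858951, plus strand):
SNRPF: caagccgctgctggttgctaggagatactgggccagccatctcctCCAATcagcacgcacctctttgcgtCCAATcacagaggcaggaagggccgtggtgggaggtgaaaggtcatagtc

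The knockdown of YBX1 asked whether the splicing genes respond to its loss. No member passed an adjusted p of 0.05 in SCC25, in SCC15, in the mean of both lines or in the difference between the lines. This held under each alternative setting run, voom weights on recovered reads included. Over all genes, 0% were called in SCC25, in SCC15 and in the difference, and 0.00770%, which is YBX1 alone, in the mean. YBX1 itself fell by 2.01 on the log2 scale in SCC25 (adjusted p = 0.29, unadjusted p = 4.97e-05) and by 2.15 in SCC15 (adjusted p = 0.326, unadjusted p = 2.51e-05), and by 2.08 in the mean of both lines (adjusted p = 0.0103). The median standard error of a member's change was 0.21 within a line and 0.15 in the mean of both. With 3 libraries a group, changes well above that size could still miss the adjusted threshold. YBX1 itself did so within each line, at -2.01 ± 0.35 in SCC25 and -2.15 ± 0.35 in SCC15. The lack of calls therefore does not exclude such changes of the members.

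At an unadjusted p under 0.05, 1 member stood out in SCC25, beside 3.09% of all genes, and none did in SCC15, in the mean or in the difference, beside 2.32%, 2.15% and 2.26% of all genes. That member was SRSF11, an SR protein that contacts U2AF. It had 5.89, 6.11 and 5.79 in SCC25 +YBX1 and 5.72, 5.61 and 5.45 in SCC25 –YBX1, which did not overlap. The change was -0.33 ± 0.15 (unadjusted p = 0.0483, adjusted p = 1.00), not past the threshold. In SCC15 it had 7.24, 7.01 and 7.33 before and 7.45, 7.16 and 7.36 after doxycycline, which overlapped. With the replicate number as a block within each line, 2 members passed the unadjusted threshold in SCC25, and 1 each in SCC15, in the mean and in the difference. None passed the adjusted one.

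The changes of the members leaned below 0 without passing the test. The median was -0.09 in SCC25 and -0.12 in SCC15, beside -0.02 and -0.01 for all genes, and 14 and 13 of the 54 changes were above 0. In the mean of both lines it was -0.12, with 12 changes above 0, and the difference between the lines had a median of 0.01. This lean came from some pairs of same-numbered libraries more than from others. The pairing is uncertain for pair 1 of SCC25 and pair 3 of SCC15, as given below. In SCC25 the median change of the members was 0.10 in pair 1, -0.25 in pair 2 and -0.10 in pair 3. In SCC15 it was -0.23, -0.12 and 0.00. Over all genes the pair medians lay between -0.03 and 0.03. Without SCC25 –YBX1 replicate 2 the SCC25 median was -0.03, and without SCC15 –YBX1 replicate 1 the SCC15 median was 0.05. SCC25 –YBX1 replicate 2 was the library with the lowest share of reads on members, 1.06%, and with the highest share on its 10 most abundant genes, 16.2%. The part of this in its low values was not tested.

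**Figure D4:**
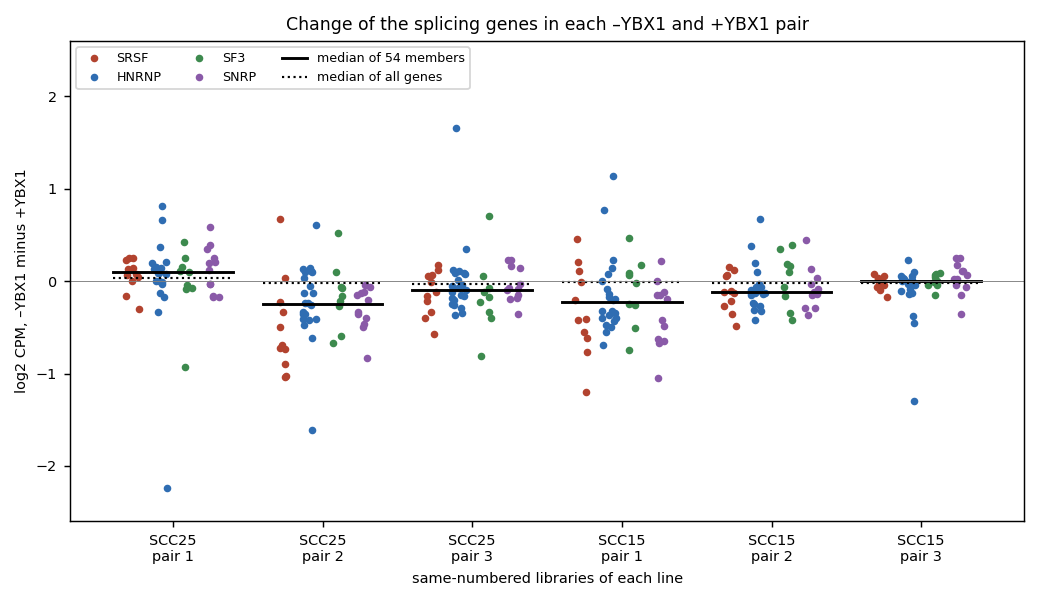
Log2 CPM of –YBX1 minus +YBX1 (y axis) of each of the 54 splicing genes (points, coloured by family) in the same-numbered libraries of SCC25 and SCC15 (x axis), with the median of the members (solid bar) and of all genes (dotted bar). The solid bars run from 0.10 in SCC25 pair 1 to -0.25 in SCC25 pair 2, and the SRSF points lie lowest in SCC25 pair 2 and SCC15 pair 1.

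The SRSF genes had the widest range of pair medians among the families. Their median change was -0.69 in SCC25 pair 2 and -0.41 in SCC15 pair 1, and between -0.12 and 0.08 in the other 4 pairs. SRSF2 changed by 0.14, -1.03 and -0.01 in the SCC25 pairs and by -1.20, -0.12 and 0.08 in the SCC15 pairs. SRSF3 changed by 0.04, -0.90 and 0.06 and by -0.77, -0.21 and -0.04. SRSF7 changed by 0.23, -0.73 and -0.57 and by -0.62, -0.36 and 0.01. SCC25 pair 2 and SCC15 pair 1 had the largest drops of all 3 genes, and SRSF7 was low in SCC25 pair 3 as well. SRSF1 and SRSF6 shared the low value in SCC25 pair 2, with 0.25, -0.73 and 0.07 and 0.14, -1.04 and 0.17 over the SCC25 pairs. Over the SCC15 pairs they changed by -0.42, -0.27 and 0.03 and by -0.41, -0.48 and 0.00. The 12 SNRP genes were all lower in SCC25 pair 2, with a median of -0.27, and had medians of 0.16 and -0.08 in pairs 1 and 3.

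Some members moved one way in every pair. In SCC25, 9 members were lower and 2 higher in all 3 pairs, or 16.7% and 3.70%, beside 11.5% and 11.0% of all genes. In SCC15 14 were lower and 5 higher, or 25.9% and 9.26%, beside 15.9% and 12.4% of all genes. HNRNPA0 and SF3B5 were lower in all pairs of both lines, and the share of all genes with that pattern was not counted. HNRNPA0, which binds AU-rich elements, changed by -0.03, -0.36 and -0.20 in SCC25 and -0.17, -0.11 and -0.08 in SCC15. SF3B5 changed by -0.08, -0.16 and -0.23 and -0.24, -0.34 and -0.04. Neither passed the test. No member was higher in all 6 pairs. For SNRPA and HNRNPA3 the order of the cancer lines was the same after the knockdown. SNRPA had 8.57, 8.14 and 8.07 in SCC15 –YBX1 and 7.61, 7.61 and 7.72 in SCC25 –YBX1, and HNRNPA3 had 7.66, 7.90 and 7.87 and 6.72, 6.68 and 6.50.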

How the data were processed

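RNA of 15 libraries (QuantSeq 3′ FWD, single-end reads of 75 bases) had been trimmed with Cutadapt, aligned to hg38 with HISAT2 and counted per gene with featureCounts by the authors. The annotation and strand setting of the counting are not given in the sources used here. The authors deposited log2 CPM values, made by adding 0.5 reads to each count and dividing by a normalized library size, in 2 tables of 12995 genes. Both tables hold the +YBX1 libraries of the cancer lines with the same values, and whole read counts could be recovered from them.

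Here, limma (version 3.58.1, R 4.3.3) was fitted to the deposited log2 CPM of all genes with a variance trend, 1 fit per table over all its groups, with two-sided tests. The p-values of all 12995 genes were adjusted together by the Benjamini-Hochberg method and called under 0.05. The fit was first run on simulated reads with an equal spread in every group, which checks the method but not the calls in these libraries. Replicates that do not overlap, pairs and medians are descriptions. A level at or under 3 reads in every library of a group was treated as a floor, and folds against it as lower bounds. Counting error alone follows from the reads given, and the spread between libraries comes on top of it.

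Members named singly were those with a central role, up to 3 that rose and 3 that fell most per family and line comparison among called members whose groups do not overlap, and up to 2 each way per list. HNRNPA0, HNRNPD, HNRNPH2 and SF3A1 were named after their values were seen, and so were some members mentioned for a single library, a pair or a neighbour. The members and lists were chosen with earlier results of these data known. Within each cancer line, libraries with the same number, with and without doxycycline, moved together around the mean of their group. Their correlations were 0.135, 0.470 and 0.425 in SCC25 and 0.498, 0.312 and 0.117 in SCC15 over 6497 genes. The numbers were therefore taken as pairs there. However, SCC25 –YBX1 replicate 1 correlated more with +YBX1 replicate 3, at 0.239. Likewise, SCC15 –YBX1 replicate 3 correlated more with +YBX1 replicate 2, at 0.345. Pair 1 of SCC25 and pair 3 of SCC15 are thus uncertain.

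Positions come from GENCODE on hg38. The last 500 bases of each member's exons were cut into pieces of 75 bases and matched to the genome with minimap2 (version 2.31). Shares of pieces that match elsewhere are of those that matched whole, without a mismatch, within the gene. Pieces across an exon junction were thus left out. Promoters are those of RefSeq on GRCh38.p14. Other alternatives were other scalings, filters, thresholds, voom weights and fits without a library. SRSF10 and SNRPN were not analysed here.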

Additional observations from a re-analysis of the deposited data

Results flagged for a closer look

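SRSF11 was lower after the knockdown in all 3 SCC25 pairs, by -0.16, -0.50 and -0.34 on the log2 scale, and higher in all 3 SCC15 pairs, by 0.20, 0.15 and 0.03. This opposite direction drew attention to it. The change in SCC25 minus that in SCC15 was -0.46 ± 0.22, with an unadjusted p of 0.0521 and an adjusted p of 1 in limma, so the test of the difference was not passed. It was the only 1 of the 54 members with opposite directions in all pairs of both lines. Of all genes, 11.5% were lower in all 3 SCC25 pairs and 12.4% higher in all 3 SCC15 pairs. The share of all genes with both was not counted, so SRSF11 is not set apart from them. The pairing is also uncertain for pair 1 of SCC25 and pair 3 of SCC15.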

How the results depend on the processing

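The counts of called members varied most. In SCC15 against OKF6 they were 14 without a variance trend and 10 at an adjusted p under 0.01, and 13 to 35 when 1 library was left out. In SCC25 against OKF6 they were 8 at 0.01, and 9 to 23 without 1 library. In SCC15 against SCC25 they were 31 with only the groups compared, with quantile normalization and with plain CPM, 12 without a variance trend, 8 at 0.01, and 10 to 18 without 1 library. The median change in SCC15 against OKF6 was 0.58 with equal library medians, 0.61 with plain CPM, 0.63 without replicate 1 of every group, and 0.29 to 0.58 without 1 library. In SCC25 against OKF6 it was -0.31 with quantile normalization, -0.23 with plain CPM, 0.15 without replicate 1 of every group, and -0.12 to 0.0913 without 1 library. In SCC15 against SCC25 it was 0.61 with equal library medians, 0.72 with quantile normalization and 0.81 with plain CPM, and 0.36 to 0.52 without 1 library. Where a scaling moved these medians it moved that of all genes too. The cause of the other shifts was not tested, except that fits without a library hold fewer samples.

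No member was called after the knockdown under any alternative run, with the replicate block or without it. Members at an unadjusted p under 0.05 in SCC25 were 0 with the replicate block across lines, with only the groups compared, quantile normalization, no variance trend, robust variances, voom weights, 2 reads added, genes above the first quartile, plain CPM, and without SCC25 –YBX1 replicate 2 in the replicate block. They were 2 with the replicate block within each line and 3 without replicate 1 of every group. The block within lines gave 1 in SCC15, 1 in the mean and 1 in the difference. Without replicate 1 of every group there were 2 in the mean and 1 in the difference, with plain CPM 1 in the difference, and without SCC25 –YBX1 replicate 2 in the replicate block 2 in the difference. Leaving out 1 library gave 0 to 4 in SCC25, 0 in SCC15, 0 to 2 in the mean and 0 to 2 in the difference. The knockdown medians without 1 library were -0.18 to -0.03 in SCC25, -0.20 to 0.05 in SCC15, -0.18 to -0.03 in the mean and -0.15 to 0.12 in the difference. Plain CPM, the block within lines, and the fits without replicate 1 or with SCC25 –YBX1 replicate 2 left out in a block were added after seeing the data. Over the genes given with a change, 1137 of these refits kept the direction and the side of the threshold, 184 kept the direction and lost the call, and none reversed it. Knockdown changes well above the median standard error of 0.21 can miss the adjusted threshold with 3 libraries a group. YBX1 itself did so within each line.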
